A study of Arabidopsis thaliana with 9 samples.

Results

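Leaves of the Arabidopsis thaliana double mutant 2cpab were compared with leaves of the wild type across 16139 nuclear loci. A locus was a member if it is nuclear and its abundance, averaged over both genotypes (6 samples), reached 1, which held for 16139 out of 33323 nuclear loci and 33602 loci in the deposited table. The other 17184 nuclear loci lay below that minimum, and 5610 of all nuclear loci stood at 0 in each of the 6 samples. Both genotypes are in the Col-0 accession, were grown for 8 weeks in short days and were sampled as young rosette leaves when the lights (125 µE m-2 s-1) had been on for 2 h. Each genotype had 3 biological replicates, and 3 plants were pooled in each. 2cpab is a double mutant of 2CPA and 2CPB, and its labels give 1 mutant genotype with no second line, so any other difference between the mutant and the wild type plants cannot be told apart from the loss of these genes. The third genotype of the series is the ntrc-2cpab triple mutant (n = 3), also mutated in NTRC, a chloroplast NADPH-dependent thioredoxin reductase. It entered the fit to estimate the spread. Its values are set beside those of 2cpab in places. They are measured against the same wild type samples and so are no independent repeat.

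2-Cys peroxiredoxins are abundant thiol enzymes of the chloroplast stroma. They reduce hydrogen peroxide and other peroxides with a reactive cysteine, which is then reduced again by NTRC or by thioredoxins. Through this exchange of electrons they also take part in oxidising the thioredoxin-regulated enzymes of photosynthesis when the light fades. Chaperones such as HSP70, HSP90 and the small heat shock proteins bind unfolded proteins, and many of their genes are induced by heat and by other stresses that damage proteins.

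Levels are scaled abundances, calculated back from the deposited log2(abundance + 1) values, and changes are log2 fold changes on that scale, 2cpab minus wild type. The number of reads behind them is unknown. Wild type replicate 1 stood apart from the other samples. On the first principal component of the 6 samples, which held 41.3% of the variance, it lay at -30.9, wild type replicates 3 and 2 lay at -13.1 and 3.77, and the 2cpab samples lay between 12.2 and 14.96. The nuclear ribosomal RNA locus AT2G01020 stood at 338 in that replicate, beside 72.9 to 161 elsewhere. Most list medians below are therefore also given without wild type replicate 1. On the second component (22.3% of the variance) wild type replicate 2 lay at 24.1 and all other samples between -12.7 and 3.52. The leaf identity of the samples was checked with mesophyll genes. RBCS1A, a Rubisco small subunit gene, stood between 10112 and 15967 and LHCB1.3, an antenna gene, between 10358 and 12732. The floral gene AP1, the flowering gene FT and the root hair gene RHD6 were listed at 0 in all 6 samples. Other markers of these lists were present: SOC1, of flowering, stood between 2.08 and 2.93 and SCR, of the root, between 5.86 and 8.65.

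The genes that passed the test in 2cpab were few. In 2cpab leaves, 11 nuclear loci were higher (0.0682% of the 16139 tested) and 11 were lower (0.0682%), 22 in all (0.136%). Calls were made at an adjusted p under 0.05 (limma with Benjamini-Hochberg adjustment, two-sided). Of the 11 that rose, 7 code for chaperones or a chaperone partner, 3 of them (HSP70-4, HSP90.1 and ROF2) of the cytosol and 4 (HSP23.5, CPN10, MTHSC70-2 and HSP89.1) of the mitochondrion. HSP23.5, with a wild type mean of 0.568, reached the abundance minimum through 2cpab. Chaperones were not counted over all loci, so the 7 of 11 are a description with no share to set beside them. Of the 11 that fell, 2 are the mutated genes. The remaining transcriptome was spread narrowly around no change: the median log2 fold change was -0.00077, the 5th and 95th percentiles were -0.31 and 0.37, and 49.9% of loci lay above 0. No overlap between the groups was seen for 1758 loci with all 2cpab samples above all wild type samples (10.9%) and for 1878 with all below (11.6%), together 22.5%. The shares above and below rose with abundance, from 8.07% and 9.44% of loci between 1 and 5 to 21.6% and 20.5% at 100 or more. At an unadjusted limma p under 0.05 there were 1452 higher (9%) and 1341 lower (8.31%) loci. Changes of at least 1 on the log2 scale were seen in 41 loci that were higher and 32 that were lower.

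The number of calls rested on single samples and on the scaling. Without wild type replicate 1, 2 loci were higher and 4 lower; without wild type replicate 2 there were 81 and 32, and without wild type replicate 3 there were 8 and 4. The counts were 4 and 4 without 2cpab replicate 1 and 0 and 4 without 2cpab replicate 2. Leaving out ntrc-2cpab replicate 1 or 2 gave 11 and 5 or 5 and 5. A fit of the 6 wild type and 2cpab samples alone called 1 locus higher, HSP70-4, and 5 lower. The share of higher calls was 50% as reported, 64.3% when all samples were set to the same nuclear sum and 60.7% with quantile normalization. Once the authors' factors were removed it was 93.9%, and the median log2 fold change of all nuclear loci moved from -0.00077 to 0.098. Values given below with the authors' scaling undone stand beside that median of 0.098. The removed factors were 1.095, 1.081 and 1.078 for wild type replicates 1 to 3 and 0.996, 0.970 and 1.022 for those of 2cpab. They did not overlap between the genotypes, so scaling and genotype cannot be told apart.

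**Figure D1:**
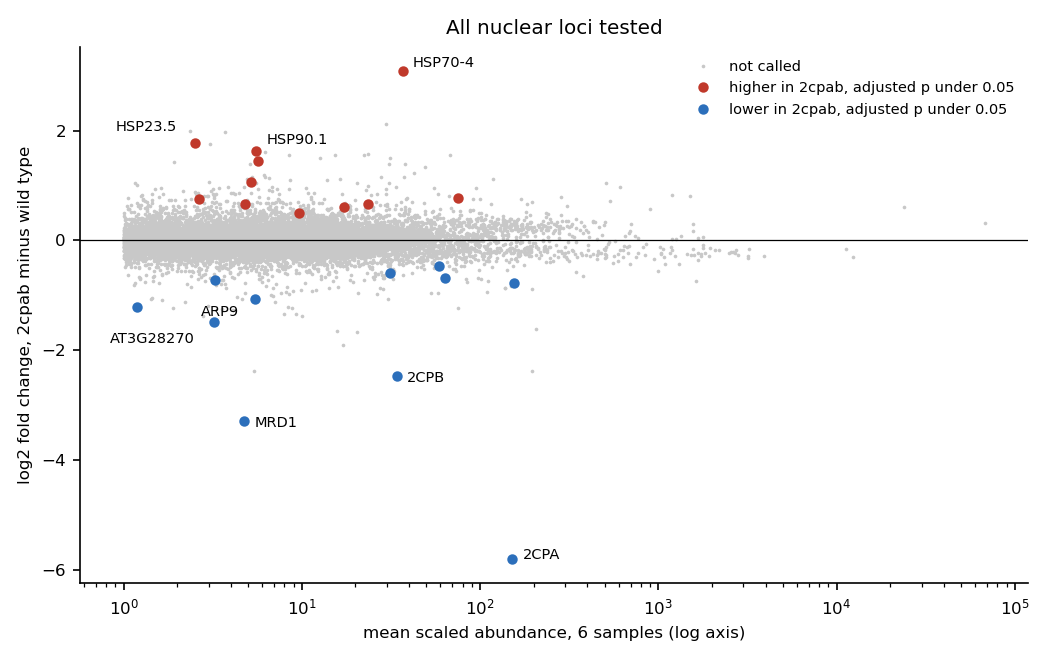
Log2 fold change of each of the 16139 nuclear loci (vertical axis) against its mean scaled abundance over both groups (horizontal log axis). Red points are the 11 loci called higher and blue points the 11 called lower in 2cpab; HSP70-4 at 3.08 and 2CPA at -5.80 are the extremes of all loci.

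The mutated genes were lost to different extents. 2CPA (AT3G11630), one of the pair of 2-Cys peroxiredoxin genes, stood at 259, 325 and 310 in the wild type and at 4.46, 4.85 and 3.72 in 2cpab. 2CPB (AT5G06290) stood at 53, 63.4 and 59.4 in the wild type and at 9.34, 9.35 and 10.6 in 2cpab. The mutant therefore kept 1.46% of the wild type level of 2CPA and 16.7% of that of 2CPB, and each 2cpab sample lay far below each wild type sample (log2 fold changes -5.80 ± 0.112 and -2.47 ± 0.099 SE, limma adjusted p = 1.09e-08 and 5.31e-06). The 3 measured genes on each side of both loci did not pass the test, with log2 fold changes between -0.11 and 0.36 around 2CPA and between -0.18 and 0.20 around 2CPB.

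Other peroxiredoxins did not pass the test. Of the 5 other measured genes of peroxiredoxins and sulfiredoxin none passed the test. PRXQ, a thylakoid-associated peroxiredoxin, stood at 159, 200 and 183 in the wild type and at 126, 141 and 153 in 2cpab, and PRXIIE, a stromal peroxiredoxin, stood at 110, 118 and 128 and at 97.9, 105 and 103. In both genes every 2cpab sample lay below every wild type sample (log2 fold changes -0.37 and -0.22, limma adjusted p = 0.135 and 0.212). SRX, sulfiredoxin, which repairs overoxidised 2-Cys peroxiredoxin, stood at 9.33, 11.9 and 9.45 against 9.11, 7.86 and 10.3, with overlap. The cytosolic PRXIIB stood at 0.21 on the log2 scale, and the mitochondrial PRXIIF at -0.037.

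Thioredoxins and their reductases had 4 of 22 measured members above 0 and 18 below, with a median log2 fold change of -0.11, beside -0.00077 over all loci. The median was -0.18 and -0.047 without wild type replicates 1 and 2. With the authors' scaling undone it was 0.0061, beside 0.098 over all loci. TRXF2, an f-type thioredoxin that activates enzymes of the Calvin-Benson cycle, stood at 32.6, 37.7 and 35.5 in the wild type and at 24.8, 26 and 26.3 in 2cpab (log2 change -0.44, limma adjusted p = 0.0713). NTRC stood at 74.5, 80.2 and 76.1 against 60.9, 64.7 and 68.1 (log2 fold change -0.25, limma adjusted p = 0.217). NTRA, a reductase of the cytosolic and mitochondrial thioredoxins, was the 1 gene of the list with all 2cpab samples above the wild type, at 24.3, 23.4 and 22.8 against 18.8, 20.1 and 21.1 (limma adjusted p = 0.173).

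Enzymes that remove hydrogen peroxide and superoxide by other routes were divided, with 16 of 34 above 0, 18 below and no call. The median was -0.042, or -0.095 without wild type replicate 1 and 0.0082 without wild type replicate 2. With the authors' scaling undone it was 0.078, beside 0.098 over all loci. CSD1, the cytosolic copper/zinc superoxide dismutase, stood at 69, 106 and 78.6 in the wild type and at 122, 121 and 111 in 2cpab (log2 change 0.50, limma adjusted p = 0.134). The thylakoid ascorbate peroxidase gene TAPX stood at 51, 57.3 and 55.5 against 49.6, 42.9 and 48.2, and the catalase gene CAT2 at 298, 300 and 257 against 245, 219 and 242. Neither passed the test (limma adjusted p = 0.222 and 0.351), although no 2cpab sample overlapped the wild type in either gene. Another catalase gene, CAT3, stood at 288, 516 and 338 against 451, 435 and 545, with overlap (0.36, limma adjusted p = 0.455). APX2, a cytosolic ascorbate peroxidase known for its induction by excess light, was listed at 0 in all 6 samples. Of 10 measured genes that respond to reactive oxygen, 4 lay above 0 and 6 below, and none passed. Their median was -0.053, or -0.32, 0.32 and -0.12 without wild type replicates 1, 2 and 3. The highest were the glutathione transferases GSTF7 and GSTF6, at 1.56 and 1.55 without overlap, and the ferritin gene FER1, at 0.70 with overlap. ZAT10 and ZAT12, zinc finger factors of the stress response, stood at -0.47 and -0.22, and ZAT10 turned to 0.10 without wild type replicate 2, in which it stood at 18.4 beside 4.63 and 5.14 in the other wild type samples. UPOX, a mitochondrial protein gene known to be induced by oxidative stress, stood at 4.95, 2.39 and 3.64 in the wild type and at 8.3, 8.76 and 6.16 in 2cpab (log2 change 0.93, limma adjusted p = 0.0786). The alternative oxidase gene AOX1A, a usual marker of mitochondrial stress signals, stood at 6.29, 9.46 and 6.69 against 7.91, 8.73 and 11.6, with overlap.

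Cytosolic chaperone genes were among the rises. All 18 measured genes of cytosolic HSP70, HSP90 and their partners lay above 0, 3 rose, and in 17 every 2cpab sample lay above every wild type sample, as in 10.9% of all loci. Their median log2 fold change was 0.51, and 0.45 without wild type replicate 1. HSP70-4 (AT3G12580), a stress-induced HSP70, stood at 8.9, 5.81 and 5.66 in the wild type and at 84.6, 74.9 and 40.9 in 2cpab. The lowest mutant sample was thus far above the highest wild type sample, and the mean was 9.84 times as high (3.08 ± 0.334 SE on the log2 scale, limma adjusted p = 0.0137). In ntrc-2cpab the mean was 44.2 ± 16.6 (SD, n = 3). HSP90.1 (AT5G52640), the heat-induced cytosolic HSP90, stood at 2.1, 2.7 and 1.66 against 10.8, 9.73 and 6.25 (1.64, limma adjusted p = 0.0137). ROF2 (AT5G48570), an FKBP-type isomerase that binds HSP90, stood at 2.59, 2.63 and 2.37 against 10.5, 10.5 and 5.67 (1.44, limma adjusted p = 0.0349). In these 3 genes 2cpab replicate 3 was the lowest of the mutant samples.

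Constitutive members of the same families differed by less than HSP70-4 and HSP90.1, and none passed. HSC70-1, the main cytosolic HSP70, stood at 690, 553 and 658 in the wild type and at 816, 796 and 727 in 2cpab (log2 change 0.30, limma adjusted p = 0.18). HSC70-3 stood at 184, 210 and 232 against 406, 373 and 312, with no overlap (0.80, limma adjusted p = 0.0629). The HSP90 genes HSP90.2, HSP90.3 and HSP90.4, which are close copies of each other and may share reads, stood at 0.75, 0.67 and 0.46. HOP1, HOP2 and HOP3, co-chaperones that link HSP70 to HSP90, stood at 0.27, 0.34 and 0.77, and HOP3 was the least abundant of these genes. HSP70B, known for its strong induction by heat, stood at 1.23, 0.773 and 0.996 against 1.09, 1.12 and 0.923 and was the 1 gene of the group whose samples overlapped.

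Small heat shock proteins and the disaggregase HSP101 differed among themselves. Of 15 genes in the list 8 reached the abundance minimum, all 8 lay above 0, 1 rose, and 5 showed no overlap (10.9% of all loci with all 2cpab above). HSP23.5 (AT5G51440), which acts in the mitochondrion, stood at 0.707, 0.681 and 0.317 in the wild type and at 5.91, 4.53 and 2.93 in 2cpab (log2 change 1.77 ± 0.238 SE, limma adjusted p = 0.0349). HSP17.6II stood at 0.302, 0.206 and 0.267 against 2.85, 7.87 and 2.65, and HSP17.6B at 2.37, 2.84 and 3.26 against 7.4, 10.2 and 5.58. Neither passed the test (log2 fold changes 1.99 and 1.16, limma adjusted p = 0.0629 and 0.0532), although the groups lay apart in both. HSP101 stood at 2.62, 2.03 and 2.93 against 7.46, 6.52 and 3.04, so that 2cpab replicate 3 lay just above the wild type. HSP18.1 and HSP17.6CI, class I small heat shock proteins, overlapped at 0.0024 and 0.25. HSP21, the chloroplast small heat shock protein, was listed at 0 in 5 samples and stood at 0.097 in 2cpab replicate 3. HSP22 of the endoplasmic reticulum stayed at or below 0.059 in all 6. The wild type means of HSP17.6II, HSP17.6A, HSP17.8 and HSP23.5 lay under 1, so these genes reached the minimum through the mutant and the counts over 8 are a description.

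Transcription factors of the heat shock response lay on both sides of 0. Of 16 measured genes 10 lay above 0 and 6 below, none passed the test, and the median was 0.033, or -0.020 without wild type replicate 1. HSFA2, a heat-induced factor that prolongs the response, stood at 0.444, 0.7 and 1.15 in the wild type and at 2.38, 1.75 and 1.5 in 2cpab (log2 change 0.71, limma adjusted p = 0.185). HSFA9, known from seeds, stood at 7.73, 6.21 and 6.82 against 10.5, 15.6 and 10.2 (0.71, limma adjusted p = 0.112). The master factors HSFA1A, HSFA1B and HSFA1D stood at -0.074, -0.084 and 0.073, each with overlap. MBF1C, a heat-induced coactivator, stood at 2.89, 5.46 and 6.19 against 4.62, 6.32 and 7.17. HSFA6B and HSFA7B were listed at 0 in all 6 samples.

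**Figure D2:**
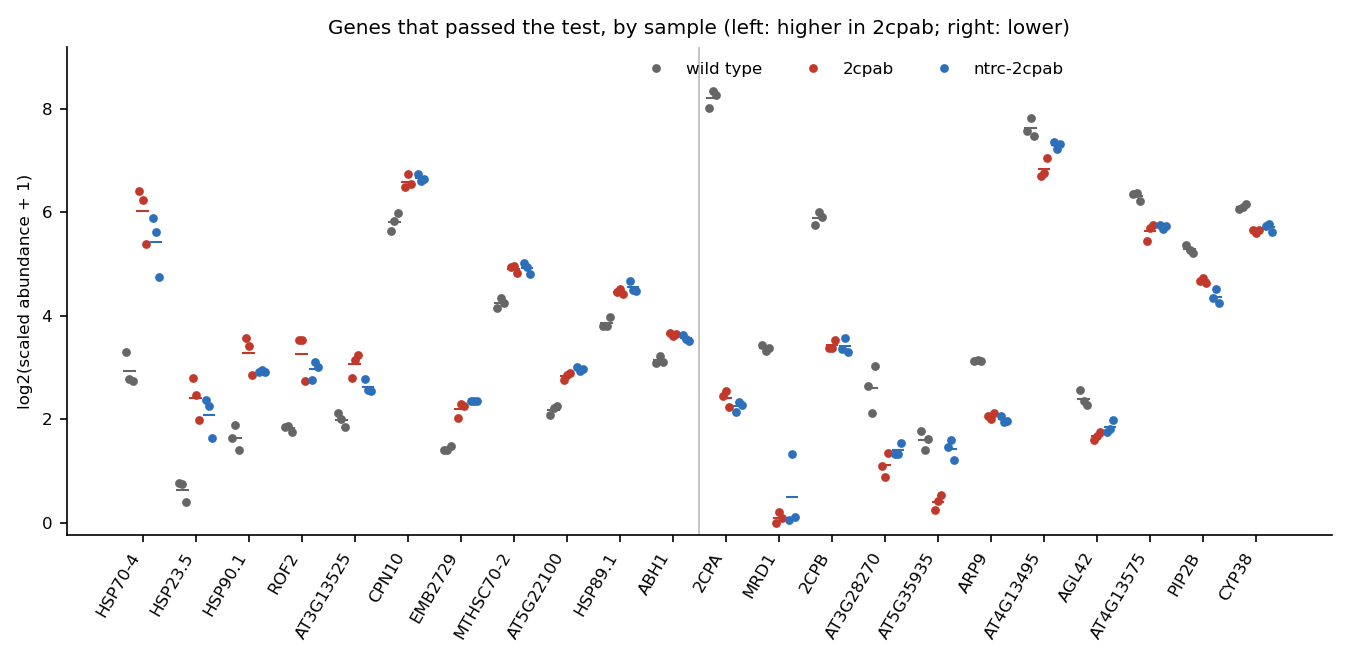
Log2(scaled abundance + 1) of the 22 called loci in each sample of the 3 genotypes, with the 11 that were higher in 2cpab on the left and the 11 that were lower on the right; points are samples (n = 3 per genotype) and short lines are means. In all 22 the 2cpab samples lie apart from the wild type, and among the chaperones the spread within 2cpab is widest for HSP70-4, HSP23.5, HSP90.1 and ROF2.

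Mitochondrial chaperones lay above 0 throughout. All 12 measured genes lay above 0, 3 rose and 10 showed no overlap (10.9% of all loci), with a median of 0.54, or 0.46 without wild type replicate 1, where 11 of 12 lay above 0. CPN10 (AT1G14980), the mitochondrial co-chaperonin, stood at 48.9, 56.2 and 62.2 in the wild type and at 88.8, 106 and 92.1 in 2cpab (log2 change 0.77, limma adjusted p = 0.0349). MTHSC70-2 (AT5G09590), a mitochondrial HSP70, stood at 16.9, 19.4 and 18 against 29.7, 30.3 and 27.2 (0.66, limma adjusted p = 0.0349). HSP89.1 (AT3G07770), the mitochondrial HSP90, stood at 13, 12.9 and 14.8 against 21, 21.9 and 20.4 (0.60, limma adjusted p = 0.0359). HSP60, the partner of CPN10, stood at 30.4, 28.8 and 34.7 against 53, 54.6 and 47.1 and did not pass (0.71, limma adjusted p = 0.0645). The means in ntrc-2cpab, against the same wild type, were 101 ± 4.9 (SD, n = 3) for CPN10, 29.6 ± 2.28 for MTHSC70-2 and 22.5 ± 1.83 for HSP89.1.

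Genes for the import of proteins into mitochondria were also above 0 in all 18 measured members, with 9 free of overlap (10.9% of all loci) and no call. Their median was 0.23, or 0.19 with 16 above 0 and 2 below without wild type replicate 1. TIM13, TIM8, TIM9 and TIM10, small chaperones that carry membrane proteins across the space between both membranes, stood at 0.67, 0.60, 0.42 and 0.42. TIM13 stood at 19.7, 23.3 and 25.9 in the wild type and at 33.8, 36.5 and 40.8 in 2cpab (limma adjusted p = 0.0679). The pore protein gene TOM40 stood at 17.9, 18.6 and 21.4 against 21.5, 22.7 and 22.4.

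Chaperones of the chloroplast, where 2-Cys peroxiredoxins act, were mixed. Of 15 genes 9 lay above 0 and 6 below, none passed, 6 had all 2cpab samples above and 2 all below the wild type (10.9% and 11.6% of all loci). The median was 0.12, or 0.042 without wild type replicate 1 and 0.23 with the authors' scaling undone. HSP90C, the plastid HSP90, stood at 42.1, 47.6 and 53.8 in the wild type and at 68.3, 75.3 and 71.8 in 2cpab (log2 change 0.58, limma adjusted p = 0.0645). The chaperonin gene CPN60B2 stood at 93.5, 95.6 and 110 against 130, 144 and 130 (0.44, limma adjusted p = 0.0679), while its more abundant homologue CPN60B1 stood at 225, 241 and 249 against 220, 220 and 221 (-0.11). CLPC1, the main stromal HSP100, stood at 307, 342 and 320 against 273, 267 and 290 (-0.22, limma adjusted p = 0.175). CLPB3, a plastid disaggregase, stood at -0.15 with overlap.

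In the endoplasmic reticulum all 13 measured chaperone genes lay above 0, 3 showed no overlap (10.9% of all loci) and none passed. Their median was 0.41, or 0.26 and 0.55 without wild type replicates 1 and 2. BIP1 and BIP2, the HSP70 pair of this compartment whose sequences are nearly alike and may share reads, each stood at 0.54. The BIP2 samples were 49.3, 63 and 58.8 in the wild type and 74.6, 80.2 and 95.8 in 2cpab (limma adjusted p = 0.156). BIP3, the strongly inducible member, stood at 0.294, 3.07 and 0.453 against 2.03, 1.69 and 3.27, so that wild type replicate 2 lay within the mutant range.

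**Figure D3:**
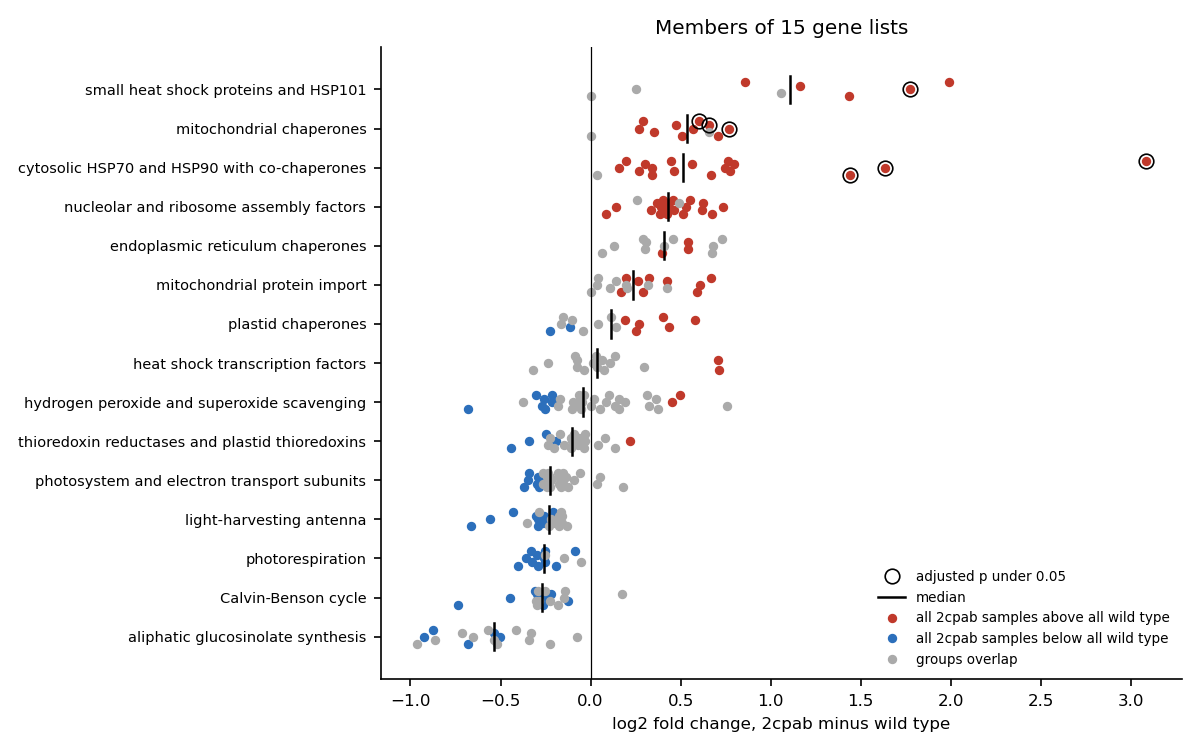
Log2 fold change of each measured member of 15 gene lists, with 1 point per gene, a vertical bar at the median and a ring around genes at adjusted p under 0.05. Medians reach 1.11 for small heat shock proteins and HSP101, 0.54 for mitochondrial chaperones and -0.54 for aliphatic glucosinolate synthesis, beside -0.00077 over all loci. That of small heat shock proteins is raised by the abundance minimum, which 4 of its 8 genes reached through 2cpab. With the authors' scaling undone the medians of thioredoxins and of scavenging enzymes are 0.0061 and 0.078, beside 0.098 over all loci.

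Genes of the nucleolus lay above 0 throughout, although none passed the test. The nucleolus makes ribosomes: small nucleolar RNAs guide the modification of ribosomal RNA within particles built on fibrillarin, NOP56 and NOP58 or on dyskerin, and further factors assemble the subunits. All 22 measured nucleolar genes lay above 0, 20 showed no overlap (10.9% of all loci), and the median was 0.43, or 0.40 without wild type replicate 1. FIB2, fibrillarin, stood at 12.6, 14.7 and 17.1 in the wild type and at 22.3, 27 and 26.3 in 2cpab (log2 change 0.74, limma adjusted p = 0.0679). NOP56 stood at 24.6, 29.9 and 34.6 against 41.4, 49.1 and 46.8 (0.62, limma adjusted p = 0.0786), and NOP58-1 at 12, 12.5 and 15.3 against 22.7, 22.9 and 19.6 (0.68, limma adjusted p = 0.0952). NUC1, nucleolin, stood at 57.1, 61.7 and 70.1 against 79.5, 102 and 92.9 (0.53, limma adjusted p = 0.0804). BOP1 and WDR12, of the complex that assembles the large subunit, stood at 0.46 and 0.62. Once the authors' scaling was undone, which called 326 of all loci higher (2.02%), 15 of these 22 genes, 10 of the 18 cytosolic and 9 of the 12 mitochondrial chaperone genes were called higher.

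Small nucleolar RNA genes and ribosomal protein genes lay on the same side. Of 61 measured small nucleolar RNA genes 57 lay above 0, 16 showed no overlap (10.9% of all loci), and the median was 0.34, or 0.42 without wild type replicate 1 and 0.20 without wild type replicate 2. The 1 that rose was AT3G13525, which stood at 3.35, 2.99 and 2.62 in the wild type and at 5.92, 7.85 and 8.43 in 2cpab (log2 change 1.07, limma adjusted p = 0.0173). Such RNAs carry no poly(A) tail as mature molecules, so how much of them is read depends on the poly(A) selection too. Of 313 genes annotated as ribosomal proteins 262 lay above 0 and 51 below, with 124 and 9 free of overlap (10.9% and 11.6% of all loci), no call and a median of 0.25, or 0.17 without wild type replicate 1. All 42 proteasome genes lay above 0, at a median of 0.13, or 0.093 without wild type replicate 1, with 15 free of overlap (10.9% of all loci). These groups were formed from words of the annotation after values had been seen, as were the following ones, which lay near no change: 100 DnaJ-domain proteins had a median of 0.00059, 146 pentatricopeptide repeat proteins -0.014, 51 tRNA ligases 0.020, 41 peptidyl-prolyl isomerases 0.0081 and 32 glutathione transferases -0.044. Without wild type replicate 1 these medians ran from -0.042 to 0.020. The 12 genes of the TCP-1/cpn60 chaperonin family stood at a median of 0.26 and 26 RNA helicases of the DEA(D/H)-box type at 0.16, or 0.23 and 0.18 without that replicate.

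The DNA upstream of these genes was read from the TAIR10.1 genome, 250 bases before the annotated gene start, and is shown for 3 nucleolar genes that hold both of the short elements named next. The telo box, AAACCCTA, and the site II element, TGGGCC, are known from promoters of plant ribosome genes; both strands were searched. Matches are in capitals.
NOP56, minus strand, chr1:20986953-20987202: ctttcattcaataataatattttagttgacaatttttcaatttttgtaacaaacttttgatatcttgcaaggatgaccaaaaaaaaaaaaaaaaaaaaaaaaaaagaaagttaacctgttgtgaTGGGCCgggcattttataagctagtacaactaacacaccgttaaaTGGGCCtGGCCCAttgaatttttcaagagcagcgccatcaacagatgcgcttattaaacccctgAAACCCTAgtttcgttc
NOP58-1, plus strand, chr5:9540611-9540860: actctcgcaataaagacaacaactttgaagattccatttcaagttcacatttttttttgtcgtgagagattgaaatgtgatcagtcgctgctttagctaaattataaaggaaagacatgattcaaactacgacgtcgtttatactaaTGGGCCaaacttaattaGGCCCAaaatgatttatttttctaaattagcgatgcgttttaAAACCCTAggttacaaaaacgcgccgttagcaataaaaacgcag
BOP1, minus strand, chr2:16856772-16857021: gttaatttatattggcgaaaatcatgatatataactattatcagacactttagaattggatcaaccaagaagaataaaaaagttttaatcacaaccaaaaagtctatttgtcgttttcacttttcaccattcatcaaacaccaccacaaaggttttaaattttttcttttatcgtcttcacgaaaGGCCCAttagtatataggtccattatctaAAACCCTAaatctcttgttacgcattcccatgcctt
The telo box was found in 5 of 22 nucleolar genes (22.7%) and in 580 of all 15625 protein-coding loci with such a window (3.71%). It was also found in 3 of 10 sugar starvation and dark-induced genes (30%) and in 2 of 9 protein-coding genes that fell (22.2%). The site II element was found in 15 of the 22 nucleolar genes (68.2%), beside 2859 of all (18.3%). It was also found in 6 of 8 small heat shock protein and HSP101 genes (75%). In sigma factors and phage-type polymerases 6 of 9 genes held it (66.7%).

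Heat shock elements, the sites of heat shock factors, were searched upstream of the genes that rose, where their share was near that of all loci. The element of 3 units, GAA, TTC and GAA with any 2 bases between them, on either strand, matched in 0 of the 10 protein-coding genes that rose and in 58 of 15625 loci (0.371%). Its core of 2 units, TTCNNGAA, reads the same on both strands and matched in 1 of the 10 (10%), HSP23.5, and in 1169 of all (7.48%). That match begins 94 bases before the gene start of HSP23.5 and is shown in capitals.
HSP23.5, plus strand, chr5:20890913-20891162: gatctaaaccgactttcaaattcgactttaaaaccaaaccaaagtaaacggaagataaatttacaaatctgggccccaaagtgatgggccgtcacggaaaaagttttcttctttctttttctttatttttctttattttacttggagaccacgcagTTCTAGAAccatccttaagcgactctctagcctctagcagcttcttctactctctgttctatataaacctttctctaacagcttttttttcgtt
These are matches of letters near gene starts as TAIR10.1 gives them. For HSP90.1, 1 of the 10 genes, the annotated start is the first coding base, so its window may hold transcribed leader in place of upstream DNA. The motifs and the windows shown were chosen after the values had been seen, the element of 3 units first and the others later. The core of 2 units was also found in 5 of the 22 nucleolar genes (22.7%). In lists with medians below 0 it was found in 4 of 13 clock genes (30.8%) and 5 of 20 Calvin-Benson genes (25%).

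The genes that fell beside the mutated ones had varied functions. MRD1 (AT1G53480), named for its low level in a mutant that accumulates methionine, stood at 9.83, 8.99 and 9.41 in the wild type and at 0, 0.148 and 0.0571 in 2cpab, so that 0.726% of the wild type mean was left (log2 fold change -3.29, limma adjusted p = 0.00322). In ntrc-2cpab its mean was 0.54 ± 0.848 (SD, n = 3). ARP9 (AT5G43500), an actin-related protein, stood at 7.73, 7.83 and 7.7 against 3.18, 3.01 and 3.33 (-1.07 ± 0.0684 SE, limma adjusted p = 0.000259). These 2 genes, 2CPA and 2CPB were the calls kept in all 9 fits that left out 1 sample. The 6 measured neighbours of MRD1 lay between -0.14 and 0.21 and those of ARP9 between -0.37 and 0.15, and none was called.

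AT3G28270, a gene of the DUF677 family of putative transmembrane proteins, stood at 5.28, 3.37 and 7.18 in the wild type and at 1.14, 0.847 and 1.53 in 2cpab (log2 change -1.50, limma adjusted p = 0.0359). Of its 6 neighbours 3 lay below 0 and 3 above. The next genes on one side, AT3G28290 and AT3G28300, which share the name AT14A and may share reads, stood at -1.12 and -1.25, and AT3G28220, a TRAF-like gene on the other side, at -1.23. None of the 3 passed the test (limma adjusted p = 0.104 to 0.201), and in each the groups did not overlap. The other 3 neighbours, CSLC04, AT3G28200 and GATL10, stood at 0.16, 0.16 and 0.0092. AT3G28220 stood at 103, 77.4 and 138 against 38, 40.4 and 53.4. Among all 36 neighbours examined, which were 6 for each of 6 loci, none was called and 9 showed no overlap, near the 22.5% of all loci.

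CYP38 (AT3G01480), an immunophilin of the thylakoid lumen needed for assembly of photosystem II, stood at 66.4, 67.5 and 70.7 in the wild type and at 49.9, 47.9 and 49.2 in 2cpab (log2 change -0.47, limma adjusted p = 0.0484). It was the 1 gene of the photosynthetic apparatus to pass. PIP2B (AT2G37170), a plasma membrane aquaporin with close copies, stood at 40.3, 37.7 and 36.1 against 24.5, 25.7 and 23.9 (-0.60, limma adjusted p = 0.0406). AGL42 (AT5G62165), a MADS-box transcription factor, stood at 4.88, 4.1 and 3.87 against 2.04, 2.18 and 2.38 (-0.72, limma adjusted p = 0.0349). The other 3 were AT4G13575, an uncharacterized protein gene, at -0.68, the noncoding locus AT4G13495 at -0.78 and the pseudogene AT5G35935 at -1.21. In ntrc-2cpab AT5G35935 lay closer to the wild type: it stood at 0.319 ± 0.13 in 2cpab and 1.7 ± 0.35 in ntrc-2cpab, beside 2.05 ± 0.387 in the wild type (SD, n = 3 each). AT4G13495 lay between, at 114 ± 14.6 in 2cpab and 157 ± 7.13 in ntrc-2cpab, beside 197 ± 25.4 in the wild type. The remaining rises were EMB2729 (AT3G20440), of the alpha-amylase family, at 0.76, AT5G22100, of the RNA cyclase family, at 0.66 and ABH1 (AT2G13540), the large subunit of the nuclear cap-binding complex, at 0.50. ABH1 stood at 7.51, 8.33 and 7.64 against 11.7, 11.3 and 11.5.

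Several loci with larger values did not pass the test, and the wild type samples of many of them were far apart. The glutathione transferases GSTF7, GSTF6 and GSTF2 stood at 1.56, 1.55 and 1.55 on the log2 scale. GSTF6 stood at 7.18, 18.9 and 8.46 in the wild type and at 37.1, 27.5 and 34.9 in 2cpab (limma adjusted p = 0.0853); GSTF6 and GSTF7 are neighbours with similar sequences and may share reads. BAM5, a beta-amylase outside the plastid, stood at 47.1, 10.6 and 18.8 against 4.63, 6.21 and 7.65 (-1.66, limma adjusted p = 0.132). XTH31, an enzyme of the cell wall, stood at 16.7, 8.04 and 10.7 against 3.8, 2.36 and 6.28 (-1.33, limma adjusted p = 0.0952). AT5G53742 had 1 wild type sample at 4.05 and the other 2 at 0.0294 and 0.0301, against 5.21, 7.91 and 4.97 in 2cpab and a mean of 0.00576 in ntrc-2cpab. TCP4 stood at 6.84, 0.457 and 7.66 in 2cpab, so its value of -1.13 rested on replicate 2. The glycine tRNA locus AT1G33370 stood at 6.97, 10.13 and 11.8 against 1.43, 0.255 and 1.64 (-2.38, limma adjusted p = 0.0629).

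Nuclear genes of photosynthesis lay below 0 nearly throughout, with no call among the antenna, photosystem, Calvin-Benson and photorespiration genes. All 21 antenna genes lay below 0 at a median of -0.23. Of these, 9 showed no overlap (11.6% of all loci, 20.5% of those at an abundance of at least 100). The median was -0.11 with the authors' scaling undone, beside 0.098 over all loci. Without wild type replicate 1 it was -0.34, and in 19 of 21 all 2cpab samples lay below the other wild type samples, beside 16.8% of all loci by that rule. LHCB2.3, of the main antenna of photosystem II, stood at 954, 1392 and 1222 in the wild type and at 753, 726 and 928 in 2cpab. Photosystem and electron transport subunits had 28 of 31 members below 0. Of the 31, 8 were free of overlap (11.6% of all loci, 20.5% of those at an abundance of at least 100). Their median was -0.22, or -0.30 and -0.13 without wild type replicates 1 and 2. Undoing the authors' scaling left 26 of 31 below 0, where the median was -0.10. In bulk leaves fewer cells of a type and less RNA per cell cannot be told apart.

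Genes of carbon metabolism also lay mostly below 0. In the Calvin-Benson cycle 19 of 20 genes lay below 0. Of the 20, 10 were free of overlap (11.6% of all loci, 20.5% of those at an abundance of at least 100). The median was -0.27, or -0.34 without wild type replicate 1 and -0.15 with the authors' scaling undone. CP12-2, the small protein that holds GAPDH and phosphoribulokinase in an inactive complex in the dark, stood at 195, 217 and 199 against 144, 140 and 163 (-0.45, limma adjusted p = 0.0645). Of the 14 photorespiration genes 11 were free of overlap (11.6% of all loci, 20.5% of those at an abundance of at least 100). All 14 lay below 0, at a median of -0.26 that was -0.27 without wild type replicate 1. With the authors' scaling undone it was -0.13, and 12 of 14 lay below 0. GLDT, the T protein of glycine decarboxylase, stood at 328, 353 and 349 against 259, 266 and 292 (-0.33, limma adjusted p = 0.0945). In chlorophyll and tetrapyrrole synthesis 25 of 29 lay below 0, at a median of -0.17, and in starch metabolism 24 of 28, at -0.16. Both medians were -0.20 without wild type replicate 1. With the authors' scaling undone these counts were 19 and 17, and the medians were -0.044 and -0.056, beside 0.098 over all loci. GLK1, a transcription factor that activates antenna and chlorophyll genes, stood at 82.3, 86.4 and 81.4 against 58.1, 57.9 and 71 (-0.42, limma adjusted p = 0.091).

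**Figure D4:**
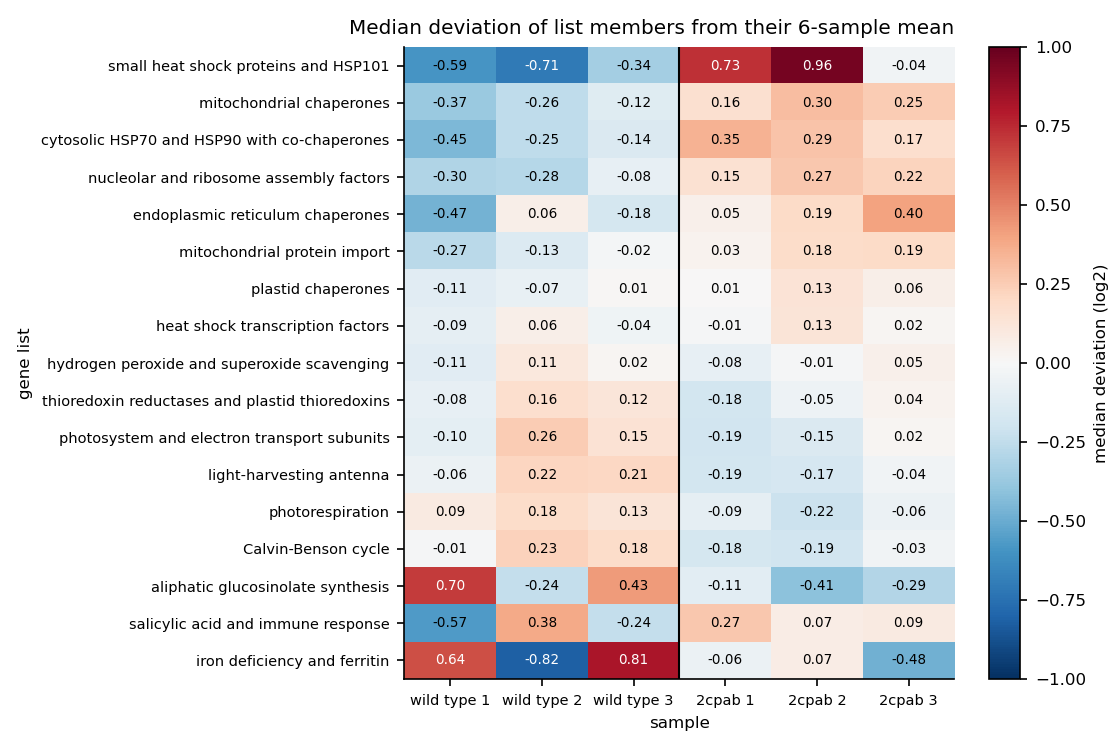
Median deviation of the members of 17 gene lists from their 6-sample means (log2, colour and printed value), by sample. The chaperone lists of cytosol and mitochondrion and the nucleolar list are below 0 in all 3 wild type samples and above 0 in all 3 2cpab samples; in the antenna, photosystem and Calvin-Benson lists wild type replicate 1, at -0.06, -0.10 and -0.01, is below 0 and the other wild type samples are above.

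Markers of other cell types were read beside these lists. Guard cell markers had 6 of 6 measured genes below 0 at a median of -0.35, or -0.45 without wild type replicate 1, with summed levels of 26.9 to 32.2 in the wild type and 19.8 to 24.6 in 2cpab. KAT1, a potassium channel of guard cells, stood at 9.21, 8.66 and 8.44 against 5.75, 4.92 and 6.67 (limma adjusted p = 0.0679). Phloem markers had 3 of 3 below 0, with sums of 62.6 to 64.3 and 47.4 to 56.3. Xylem (20.1 to 27.6 over both groups), trichome (6.68 to 15.03) and epidermis markers (123 to 165) overlapped in their sums. Of the 3 epidermis markers FDH made up most of the sum, while CER1, a wax synthesis gene, stood at 34.5, 27.2 and 32.9 against 14, 23.9 and 22.9, with no overlap (-0.64, limma adjusted p = 0.145). Dividing cell markers were above 0 in 5 of 5, with sums of 12.9 to 18.5 in the wild type and 15.5 to 23.63 in 2cpab. Their median was 0.16, and without wild type replicate 1 it was 0.025 with 3 above 0 and 2 below. The part of cell composition in the lists above was not tested.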

How the data were processed

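Poly(A) RNA of young rosette leaves was sequenced from 9 samples, of which 6 are compared here. The tools HISAT2, StringTie and FastQC and the build TAIR10 are named, without versions, per the submitters' processing notes. The authors deposited log2 values per locus and sample, which have the form log2(abundance + 1). The 75th percentile was the same, 2.75, in every sample. From the low values 1 factor per sample (0.970 to 1.10) could be recovered. It was higher in each wild type sample than in each 2cpab sample. After division by it, 98.8 to 99.8% of these low values were whole within 0.1. Whether abundance is FPKM or TPM is not stated, and depth is unknown.

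limma 3.58.1 in R 4.3.3 (lmFit, eBayes with trend) was fitted to all 9 samples (6 residual degrees of freedom), and p-values were adjusted over 16397 loci, 258 of them organellar. The test was checked on simulated data. Names came from TAIR10.1 (16087 members matched). Members, 45 lists and tests were chosen with earlier results of these data known. Named were the mutated genes, all called loci, up to 8 uncalled loci each way without overlap, up to 4 members a list and neighbours; other list members, 10 annotation groups and 4 motifs were named after their values were seen. The settings tried and their effect close the text.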

Additional observations from a re-analysis of the deposited data

How the results depend on the processing

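The 11 higher and 11 lower calls became 1 and 5 in the fit of 6 samples, 27 and 15 with the same nuclear sum in every sample, 17 and 11 with quantile normalization, 326 and 21 with the authors' scaling undone, 93 and 64 with array weights and 9 and 26 with no filter on low abundance. Leaving out 1 sample gave 0 to 81 higher and 4 to 32 lower calls. A mean abundance of at least 5, a pseudocount of 0.1, no intensity trend, and nuclear loci only (added after seeing the data) kept both counts within 1.5 times. With the replicate number as a block the counts were 4 and 5. Same-numbered samples of both genotypes correlated at 0.20, -0.12 and 0.013 in their deviations, and differently numbered ones at -0.23 to 0.25. These values cannot show whether the numbers pair the samples, and ntrc-2cpab was left out of them. With the block the limma adjusted p was 0.000744 for HSP70-4 and 0.00166 for HSP23.5, while 8 of the 22 calls remained. Of the 22 calls 21 remained with quantile normalization, 22 each with the same nuclear sum, the scaling undone and array weights, and 5 in the fit of 6 samples.

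HSP70-4 kept its call in 6 of 9 fits without 1 sample and lost it with no filter (limma adjusted p = 0.0678; range over all alternatives 0.000744 to 0.103). HSP90.1 kept it in 7, HSP23.5 and MTHSC70-2 in 4, ROF2, CPN10 and HSP89.1 in 2, ABH1 and CYP38 in 1. Of 190 named genes 8 changed sign under some setting, in 15 of 3759 values, none of them called: ZAT10 (0.10) and ATML1 (-0.0022) without wild type replicate 2; CDKB2;1 (-0.0039), FDH (-0.033) and ATML1 (-0.051) without wild type replicate 1; SOC1 (0.0091) without wild type replicate 3 and (0.082) without 2cpab replicate 1; XCP2 (-0.080), GL2 (-0.027) and CYCB1;1 (-0.0019) without 2cpab replicate 2; ATML1 (-0.037) without 2cpab replicate 3; XCP2 (-0.0027) and ATML1 (-0.024) with the same nuclear sum; ATML1 (-0.052) with array weights; SOC1 (0.061) with the scaling undone. Of 45 list medians 9 changed sign, in 25 of 898 values: thioredoxins, scavenging enzymes, reactive oxygen response, mitochondrial retrograde signalling, heat shock factors, jasmonate, epidermis, xylem and flowering markers. Over all fits without 1 sample the farthest values of these genes were -0.79 for ZAT10, 0.16 for XCP2, 0.18 for GL2, 0.29 for CDKB2;1, 0.17 for CYCB1;1, 0.15 for FDH, 0.092 for ATML1 and -0.094 for SOC1. The cause of these changes was not tested. Depth is unknown, so no counting error is given.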

Other observations

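Some gene groups differed between the wild type samples as much as between genotypes. Aliphatic glucosinolate genes lay below 0 in 17 of 17, at a median log2 fold change of -0.54, and no gene passed the test. CYP79F1, the enzyme that commits methionine derivatives to this pathway, stood at 45.1, 23.54 and 44.9 in the wild type and at 21.6, 17.3 and 19.3 in 2cpab. Wild type replicate 2 thus lay next to the mutant, and the list median was -0.89 without that replicate and -0.38 without wild type replicate 1. The iron deficiency list had 11 of 14 genes below 0 and none free of overlap (22.5% of all loci). Its median of -0.47 was -0.23, -1.03 and -0.15 without wild type replicates 1, 2 and 3. BHLH39, a regulator of iron uptake, stood at 5.24, 0.409 and 9.15 against 1.6, 2.82 and 0.672. Immune genes lay above 0 in 16 of 18, and 16 of the 18 overlapped, as did 12503 of all 16139 loci. Their median of 0.28 was 0.12 and 0.45 without wild type replicates 1 and 2. PR2, a beta-1,3-glucanase gene of the salicylic acid response, stood at 4.79, 49 and 9.14 against 27.4, 36.8 and 60.4.

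Growth and water channel genes lay mostly below 0. Expansins, which loosen cell walls, had 9 of 10 genes below 0 at a median of -0.32, or -0.17 without wild type replicate 1, and none passed. EXPA4 stood at 15.1, 13.5 and 15.1 in the wild type and at 8.79, 10.8 and 10.2 in 2cpab (-0.52, limma adjusted p = 0.0645). Aquaporins had 13 of 16 below 0, with PIP2B called lower, and 8 of 16 with the authors' scaling undone. Their median of -0.13 ranged from -0.22 to -0.040 when 1 sample of either group was left out. With the scaling undone it was -0.012, beside 0.098 over all loci. APR1, the adenosine phosphosulfate reductase of sulfate assimilation, stood at 27.7, 19 and 22.7 against 14.8, 16.6 and 12.1 (-0.64, limma adjusted p = 0.0952). Cold-responsive genes lay below 0 in 7 of 7 at a median of -0.36, and in 5 of 7 at -0.21 without wild type replicate 1. ASN1, an asparagine synthetase gene induced in the dark, stood at 10.4, 15.3 and 9.56 against 5.43, 5.72 and 4.85 (-0.98, limma adjusted p = 0.0772). Clock genes had a median of -0.19, or -0.12 without wild type replicate 1, with 10 of 13 below 0 and 1 evening gene, TOC1, at 2.29, 2.65 and 1.87 against 2.69, 3.23 and 2.69. Jasmonate genes had 9 of 22 above 0 at a median of -0.096, which turned to 0.045 without wild type replicate 1. With the authors' scaling undone it was 0.019, beside 0.098 over all loci.

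The remaining lists had no call. Medians, with their range over fits without 1 wild type or 2cpab sample, were -0.18 (-0.25 to -0.15) for 9 genes of cyclic electron flow and quenching and -0.15 (-0.19 to -0.091) for 9 sigma factors and phage-type polymerases. They were -0.11 (-0.25 to -0.016) for 18 genes of abscisic acid signalling and -0.12 (-0.20 to -0.037) for 13 light and greening factors. They were -0.16 (-0.21 to -0.096) for 8 genes of indolic glucosinolates and -0.19 (-0.23 to -0.14) for 16 of phenylpropanoids and anthocyanins. With the authors' scaling undone all 6 lay between -0.083 and -0.0074, beside 0.098 over all loci. Nuclear loci at an abundance of at least 100 varied more in log2 fold change (SD 0.41 over 528 loci) than those between 1 and 5 (SD 0.22 over 7079). The scale, log2(abundance + 1), shrinks changes at low abundance, and its part in this difference was not tested.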
